A study of Mus musculus with 5 samples.

Results

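Transforming growth factor beta (TGF beta) signalling was examined in dorsal skin of *Clock* mutant mice through 10 genes, its ligands *Tgfb1*, *Tgfb2* and *Tgfb3*, its receptors *Tgfbr1*, *Tgfbr2* and *Tgfbr3*, the signal carriers and inhibitors *Smad3*, *Smad6* and *Smad7*, and the induced matrix gene *Tgfbi*. Every probe set that the platform annotation assigned to 1 of these genes alone was taken, which gave 25 of the 45037 probe sets on the array that were not controls. All 10 genes, of 18193 named on the array, were represented, by 1 to 4 probe sets each. The groups were 2 *Clock* mutant mice, a male (replicate 1) and a female (replicate 2), and 3 wild-type littermates, all female. All 5 mice were at postnatal day 23 and staged by histology as telogen, when hair follicles rest between bouts of growth. In a time course of other wild-type mice, the study classes postnatal day 23 as early anagen, the start of the growth phase. Both genotypes were on a C57BL/6J background by the methods of the study. The labels do not give zygosity or the time of day of collection. No mouse was treated, and RNA of each mouse was hybridised to an array of its own. The study reports a delay of the next hair growth phase in *Clock* mutants, and the question was which transcripts differ at this age. Genes of the growing follicle were highest on the array of *Clock* mutant replicate 1, as given below. The mutant allele carries a single base change, after which the *Clock* message is spliced differently.

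The ligands are made as latent precursors that are held in the extracellular matrix until released. An active ligand binds the type II receptor, encoded by *Tgfbr2*, which phosphorylates the type I receptor, encoded by *Tgfbr1*, while betaglycan, the *Tgfbr3* product, presents ligand to them. The type I receptor phosphorylates SMAD2 and SMAD3, which enter the nucleus with SMAD4, and the inhibitory SMAD6 and SMAD7 hold the pathway back. In skin the pathway is known for restraining keratinocyte growth, for matrix production by dermal fibroblasts, and for roles in regression of the hair follicle and, through TGF beta 2 from the dermal papilla, in activation of hair germ cells.

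CLOCK and its partner BMAL1 bind E-boxes, so the promoters of the 2 ligand genes with the most different values are shown as an aid to the comparison. RefSeq windows (assembly GRCm38.p6) from 250 bases before to 50 bases after the start of transcription were matched for 7 of the 10 genes, with 8 windows in all. The stretches below run from 100 bases before the start to the base before it, with capitals marking the E-box CACGTG. The *Tgfb2* stretch is at chr1:186705990-186706089 on the minus strand, and the *Tgfb1* stretch is at chr7:25686902-25687001 on the plus strand.
Tgfb2: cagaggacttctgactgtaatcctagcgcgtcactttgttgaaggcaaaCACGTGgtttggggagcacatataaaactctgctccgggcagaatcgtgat
Tgfb1: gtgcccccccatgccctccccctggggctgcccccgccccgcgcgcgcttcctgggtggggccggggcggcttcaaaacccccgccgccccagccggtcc

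The E-box of *Tgfb2* lay from base -51 to base -46 before the start site. It was the single match to CACGTG among the 8 windows, against 7.15% of the 32851 windows of all genes in the table. The related E-prime box CACGTT, the D-box TTATGTAA and the core site AGGTCA bound by ROR and REV-ERB receptors, searched on both strands, had no match in these windows, and 4.68%, 0.938% and 16.3% of all windows held them. CACGTG and GTCTAGAC, the palindromic element to which SMAD3 and SMAD4 bind, read the same on both strands. GTCTAGAC was found at the start site of *Smad6*, the inhibitory SMAD that had lower intensities in the mutants, from base -4 to base 4, and in 0.213% of all windows. It is shown in capitals with the 22 bases before it, at chr9:64022056-64022085 on the minus strand.
Smad6: agcgccgcggagccgccaaagtGTCTAGAC

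A match is a sequence in a window and was not tested for binding. The windows of *Tgfb1*, *Tgfbr1*, *Tgfbr2*, *Smad3* and *Tgfbi* held none of these letters.

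The values were MAS5 signal intensities, 1 per probe set and array, on a linear scale scaled by the authors to an equal trimmed mean. Differences are on the log2 scale, *Clock* mutant minus wild type, with standard errors (SE) and adjusted p-values from limma. The median intensity was 106 and 114 on the arrays of *Clock* mutant replicates 1 and 2, and 116 to 118 on the wild-type arrays. Both mutants were thus dimmer than every wild-type mouse, and the largest gap was 0.16 in log2. Lists of keratinocyte, fibroblast, adipocyte, skeletal muscle and other skin cell markers were measured on every array, though *Plin1* of the adipocyte list had no probe set. Summed intensities were 55409 to 64045 for keratinocyte and 79786 to 88321 for fibroblast genes. The median log2 deviation from the wild-type mean was 0.44 in mutant replicate 1 and -0.37 in replicate 2 for adipocyte genes. It was 0.25 and -0.20 for macrophage and Langerhans cell genes, and 0.07 and -0.51 for melanocyte genes. For keratinocyte, fibroblast, skeletal muscle, endothelial and mast cell genes it lay from -0.09 to 0.10 in the mutants. *Clock* mutant replicate 1 stood apart in genes of the growing follicle, its hair keratin and root sheath genes. The 8 testable genes of the 14 listed had a summed intensity of 7989 on that array, of 1559 on *Clock* mutant replicate 2 and of 625 to 1573 in wild-type skin. The ratio of 3' to 5' signal of control messages rises as the 5' end of a message is lost. For pyruvate carboxylase it was 54.1 on that array against 19.1 to 28.1 on the other 4. For *Gapdh* it was 1.06 and 0.988 in mutant replicates 1 and 2, against 0.861 to 0.9552 in wild-type skin. For beta-actin it was 1.214 and 1.228 against 1.143 to 1.203. Both mutants thus lay above every wild-type mouse for *Gapdh* and beta-actin, by small amounts for beta-actin. Leaving out replicate 1 does not remove this, and its part in the differences was not tested.

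Among the ligands, *Tgfb2* had higher intensities in *Clock* mutant skin and *Tgfb1* lower ones, while *Tgfb3* overlapped between the genotypes. Of the inhibitory SMAD genes, *Smad6* was lower in both mutants. The receptors and *Tgfbi* lay close to the wild-type level at their brightest probe sets. None of these differences passed the adjusted threshold of 0.05, which 0.0888% of all 27022 tested probe sets passed. Of the 25 member probe sets, 22 were bright enough to be tested, and 3, of *Tgfbr2*, *Smad3* and *Smad7*, were not.

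**Figure D1:**
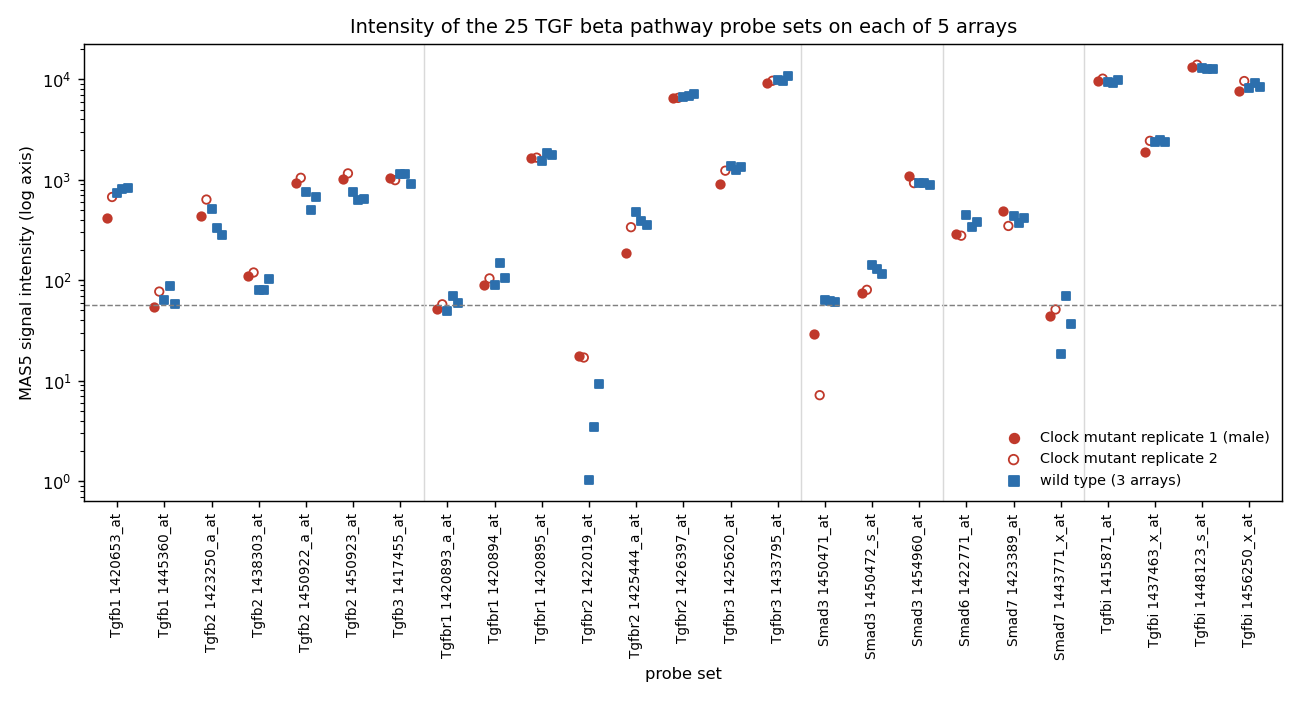
MAS5 signal intensity (vertical axis, log scale) of each of the 25 probe sets (horizontal axis) on each array; red circles are *Clock* mutant arrays (filled, replicate 1, the male), blue squares are the 3 wild-type arrays and the dashed line is the intensity filter of 56.7. The *Tgfb2* probe set 1450923_at lies at 1031 and 1160 in the mutants and at 623 to 755 in wild-type skin, while *Tgfb1* 1420653_at lies at 415 and 675 against 734 to 839.

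*Tgfb2* encodes the TGF beta 2 ligand. Its brightest probe set, 1450923_at, had intensities of 1031 (replicate 1) and 1160 (replicate 2) in the mutants, against 755, 623 and 647 in the wild-type mice, given here and below in the order of their replicate numbers. Both mutants lay above all 3 wild-type mice. The log2 difference was 0.70 (SE 0.121, adjusted p = 0.113 by limma), a 1.63-fold higher level with a 95% interval of 0.43 to 0.97 on the log2 scale. It was 0.79 without the male mutant, that is among females, and 0.62 without the other mutant, close to the value with both. Over the 14 alternative settings it ranged from 0.62 to 0.79, with adjusted p-values from 0.0599 to 0.518.

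The other *Tgfb2* probe sets pointed the same way. The probe set 1450922_a_at had intensities of 930 and 1048 in the mutants against 760, 498 and 678 in wild-type skin. Its difference was 0.64 (SE 0.172, adjusted p = 0.295). The probe set 1438303_at was dimmer, with 110 and 119 against 80.0, 79.3 and 103 (0.40, SE 0.235, adjusted p = 0.561). In both, the groups did not overlap. The probe set 1423250_a_at, with 437 and 636 against 508, 329 and 283, overlapped between the groups (0.54, SE 0.251, adjusted p = 0.477). Its difference was 0.27 without *Clock* mutant replicate 2 and 0.81 without replicate 1. 3 of the 4 *Tgfb2* probe sets, including the brightest, were designed from 1 and the same sequence, so they are not separate evidence, and 1438303_at was designed from another.

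*Tgfb1*, which encodes the TGF beta 1 ligand, had the opposite sign at its brighter probe set. The intensities of 1420653_at were 415 and 675 in the mutants, against 734, 810 and 839 in wild-type skin. Both mutants lay below the wild-type mice, but replicate 1 was far lower than replicate 2. The log2 difference was -0.58 (SE 0.187, adjusted p = 0.356). Leaving out *Clock* mutant replicate 2 gave -0.93 and the lowest adjusted p of all settings, 0.0383, and leaving out replicate 1 gave -0.23 and the highest, 0.853. The array that decided the size is the male one, with the high growing follicle genes and the control ratio of 54.1, and the part of these in the difference was not tested. Whole skin was measured, so fewer cells of a type and less RNA per cell cannot be told apart.

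The other *Tgfb1* probe set, 1445360_at, lay near the filter at 54.1 and 77.1 in the mutants and 63.9, 86.7 and 58.6 in wild-type skin. Its groups overlapped and its difference of -0.09 (95% interval -0.78 to 0.60) turned to 0.04 after quantile normalization, to 0.17 without *Clock* mutant replicate 1 and to 0.08 without wild-type replicate 2. *Tgfb3*, the TGF beta 3 ligand gene, had 1 probe set, with 1038 and 993 in the mutants and 1138, 1142 and 914 in wild-type skin. Here the groups overlapped, and the difference was -0.06 (95% interval -0.34 to 0.21) and 0.03 after median centring. The test of a difference between the ligands themselves was not made.

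At their brightest probe sets the receptor genes lay near the wild-type level. A dimmer tested probe set of *Tgfbr2* and one of *Tgfbr3* had lower intensities in both mutants, while an untested one of *Tgfbr2* had higher ones. All 7 tested probe sets had negative differences, but those of *Tgfbr1* 1420895_at and *Tgfbr2* 1426397_at turned to 0.04 and 0.02 after median centring and that of *Tgfbr1* 1420893_a_at to 0.01 after quantile normalization, and without wild-type replicate 2 those of *Tgfbr1* 1420893_a_at and 1420895_at were at 0.0043 and 0.00054. *Tgfbr1*, the type I receptor kinase gene, had intensities of 1648 and 1663 in the mutants and 1536, 1840 and 1784 in wild-type skin at its brightest probe set (-0.05, 95% interval -0.28 to 0.18). The other *Tgfbr1* probe sets, at 49.3 to 148.8, differed by -0.12 and -0.22 and overlapped between the groups. All 3 were designed from the same sequence.

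*Tgfbr2*, the type II receptor kinase gene, gave different values at its probe sets. At the brightest, 1426397_at, the intensities were 6515 and 6550 in the mutants and 6662, 6782 and 7083 in wild-type skin. The groups did not overlap, yet the difference was small (-0.07, 95% interval -0.22 to 0.09). At 1425444_a_at the intensities were 186 and 338 against 479, 393 and 353, a log2 difference of -0.69 (SE 0.245, adjusted p = 0.378). Here again replicate 1 was the lower mutant, and the difference was -0.26 without that array and -1.12 without replicate 2, with adjusted p-values from 0.0579 to 0.890 over the settings. The third probe set, 1422019_at, was too dim to test, at 17.6 and 17.0 in the mutants and 1.0 to 9.3 in wild-type skin.

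*Tgfbr3* encodes betaglycan, a co-receptor that binds all TGF beta ligands. Its brighter probe set, 1433795_at, was at 9234 and 9701 in the mutants and 9784, 9710 and 10814 in wild-type skin (-0.09, 95% interval -0.26 to 0.07). The dimmer one, 1425620_at, was at 915 and 1234 against 1380, 1253 and 1348. Both mutants lay below the wild-type range at each probe set, though *Clock* mutant replicate 2 only just did so. The difference at 1425620_at was -0.32 (SE 0.131, adjusted p = 0.44). Leaving out *Clock* mutant replicate 1 gave -0.10, and leaving out replicate 2 gave -0.54, with adjusted p-values from 0.0834 to 0.926 over the settings.

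**Figure D2:**
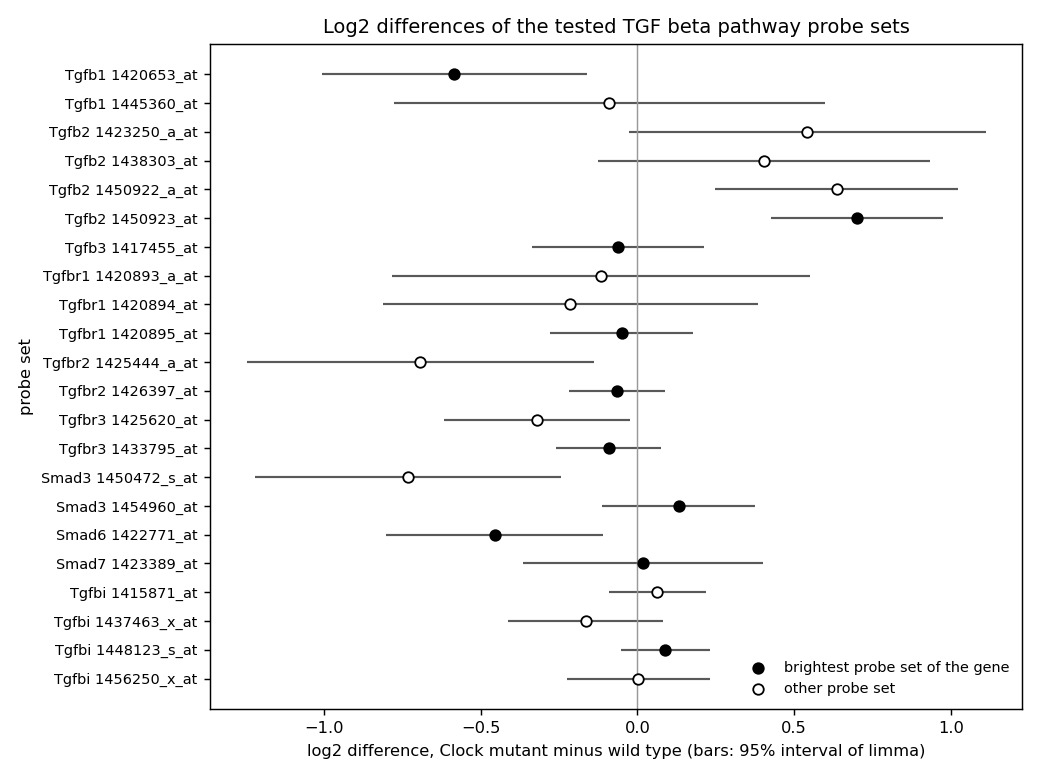
Log2 difference, *Clock* mutant minus wild type (horizontal axis), for each of the 22 tested probe sets (vertical axis), with bars for the 95% interval from limma; filled points are the brightest probe set of each gene and open points are its other probe sets. *Tgfb2* 1450923_at lies farthest to the right at 0.70 and *Smad3* 1450472_s_at farthest to the left at -0.73.

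*Smad3*, which carries the signal from the type I receptor to the nucleus, also differed between its probe sets. The brightest, 1454960_at, had intensities of 1103 and 928 in the mutants and 937, 936 and 898 in wild-type skin, and the groups overlapped (0.13, 95% interval -0.11 to 0.38). Its difference was 0.0064 without *Clock* mutant replicate 1 and 0.26 without replicate 2. The dimmer 1450472_s_at had 74.7 and 80.3 against 141, 131 and 116. Both mutants lay below all wild-type mice there, with a log2 difference of -0.73 (SE 0.216, adjusted p = 0.317). This difference was -0.68 without *Clock* mutant replicate 1 and -0.78 without replicate 2. Another probe set, 1450471_at, designed from the same sequence as 1450472_s_at, was below the filter at 29.5 and 7.2 in the mutants and 60.3 to 64.1 in wild-type skin. By the maker's suffix, the probes of 1450472_s_at may also match transcripts of other genes.

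*Smad6*, which encodes an inhibitory SMAD better known for blocking bone morphogenetic protein signals, had 1 probe set. Its intensities were 286 and 278 in the mutants and 446, 340 and 381 in wild-type skin, so that both mutants were lower than every wild-type mouse and close to each other. The log2 difference was -0.46 (SE 0.153, adjusted p = 0.371), a 1.37-fold lower level. It was -0.48 without *Clock* mutant replicate 1, -0.43 without replicate 2, and -0.55 to -0.35 over all settings. *Smad7*, which encodes the other inhibitory SMAD and targets the type I receptor for degradation, showed no such pattern. Its testable probe set was at 493 and 347 in the mutants and 439, 374 and 416 in wild-type skin (0.02, 95% interval -0.36 to 0.40). The mutants lay on opposite sides of the wild-type mice, and the difference was -0.24 without replicate 1, 0.27 without replicate 2 and -0.05 without wild-type replicate 2. The other *Smad7* probe set was below the filter, at 43.8 and 51.2 against 18.3, 69.6 and 37.1.

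*Tgfbi* encodes a secreted adhesion protein of the matrix that was named for its induction by TGF beta. It was among the brightest transcripts of the array, with 4 probe sets. At 1448123_s_at the intensities were 13203 and 14009 in the mutants and 12871, 12636 and 12849 in wild-type skin (0.09, 95% interval -0.05 to 0.23), and the groups did not overlap. At 1415871_at, designed from the same sequence, they were 9662 and 10181 against 9356, 9208 and 9921, with overlap (0.06, 95% interval -0.09 to 0.22). By the maker's suffix, the probes of 1448123_s_at may also match transcripts of other genes. The remaining probe sets, 1456250_x_at and 1437463_x_at, whose suffix marks probes that can match other transcripts, differed by 0.0032 and -0.17. The value of 1456250_x_at turned negative in 5 of 14 settings, at most to -0.16, and that of 1437463_x_at was 0.01 without *Clock* mutant replicate 1.

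Counted over the 22 tested probe sets, 9 had positive and 13 negative differences, with a median of -0.06 against -0.02 over all tested probe sets. After median centring these medians were 0.02 and 0.07. At an unadjusted p under 0.05, 2 were higher, both of *Tgfb2*, and 5 were lower, of *Tgfb1*, *Tgfbr2*, *Tgfbr3*, *Smad3* and *Smad6*. That is 31.8% of the members, where 10.8% of all tested probe sets met this limit. The groups did not overlap in 11 of the 22 members, 4 higher and 7 lower, against 27.9% of all tested probe sets. With each gene at its brightest probe set, the groups did not overlap in 6 of 10 genes, against 27.9% of 12955 genes. The members were chosen with earlier results of these data known, so that choice alone may raise their shares. Since probe sets of a gene also share a message, these counts are a description without a test.

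**Figure D3:**
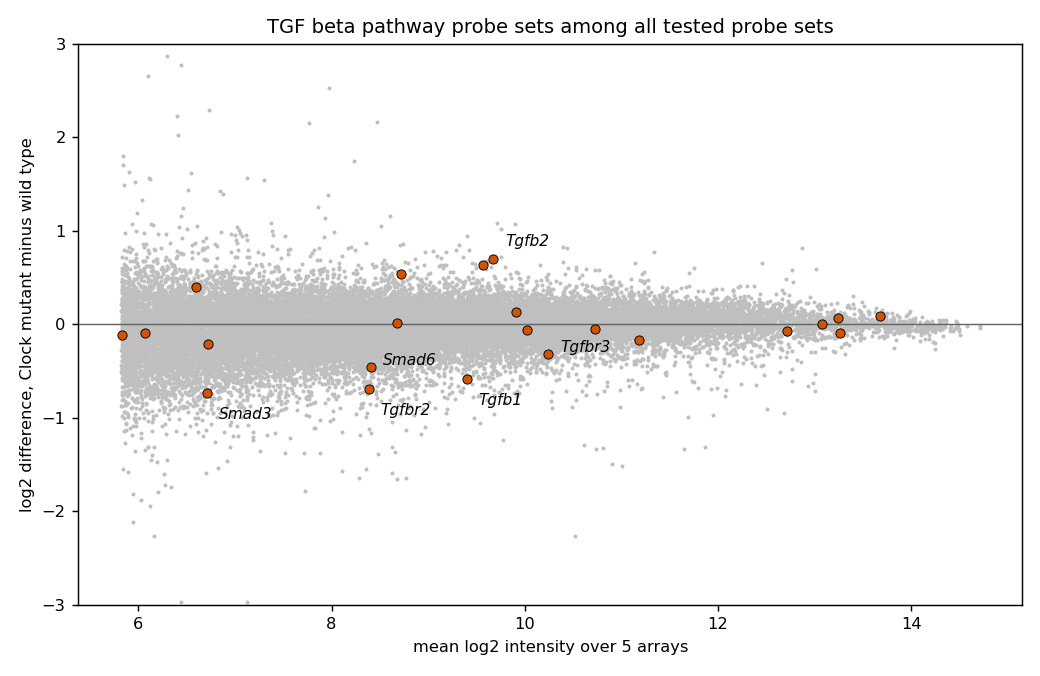
Log2 difference, *Clock* mutant minus wild type (vertical axis), against mean log2 intensity over the 5 arrays (horizontal axis) for all 27022 tested probe sets (grey, 6 beyond the axis) and the 22 tested members (orange), with the gene named at 6 member probe sets. Grey points fan out toward low intensity, and the *Tgfb2* point at 0.70 lies near the upper edge of the cloud at its intensity.

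*Clock* mutant replicate 1 had the lowest intensity of the 5 arrays in 10 of the 22 tested members, and *Clock* mutant replicate 2 in 2. The same counts over all tested probe sets were not made. Replicate 1 also had the lowest median intensity of the 5 arrays, at 106, so these counts are not read as a trait of the members. The median deviation of the members from the wild-type mean was -0.10 in replicate 1 and -0.04 in replicate 2 on the log2 scale. In the same arrays the median deviation of the 8 growing follicle genes was 2.91 and 0.98, and in wild-type replicates 1, 2 and 3 it was 0.69, -0.32 and -0.35. That of the 4 proliferation genes was 0.57 and -0.24 in the mutants. None of the 8 follicle genes passed the adjusted threshold, all 8 had an unadjusted p under 0.05, and the part of follicle growth in the members' values was not tested. Of the 7 probe sets with an unadjusted p under 0.05, those of *Smad6*, *Smad3* (1450472_s_at) and *Tgfb2* (1450923_at and 1450922_a_at) kept most of their difference without either mutant. Those of *Tgfb1*, *Tgfbr2* and *Tgfbr3* were less than 0.5 times as large without replicate 1. The *Gapdh* and beta-actin control ratios were higher in both mutants than in wild-type skin, so leaving out either mutant does not separate them from genotype.

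The other genes of the pathway were taken from a list of 38 genes, of which 36 had a testable probe set. After adjustment over all probe sets, none of these 36 genes passed (0 higher, 0 lower). Of their 68 tested probe sets, 6 were higher and 2 lower at an unadjusted p under 0.05, near the 10.8% of all probe sets. The groups did not overlap in 10 of the 36 genes at their brightest probe set, close to the 27.9% of all genes, and the median difference of the genes was -0.01. At their brightest probe sets the differences of the 9 genes of latency and activation ran from -0.41 to 0.63 and those of the 10 SMADs and cofactors from -0.16 to 0.10, and dimmer probe sets went outside this range. The SMAD partner *Smad2* was at 0.0042 at its brightest probe set and at 0.30 (adjusted p = 0.534) at the dimmer 1442062_at, and the 3 probe sets of *Smad4* were at 0.05, 0.08 and 0.18 (adjusted p = 0.856, 0.773 and 0.423).

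*Ltbp2*, a matrix protein related to the latent TGF beta binding proteins that does not itself bind latent TGF beta, had intensities of 1401 and 1575 in the mutants and 943, 984 and 947 in wild-type skin. Both mutants lay well above the wild-type mice (0.63, SE 0.097, adjusted p = 0.0711). It passed with median centring (adjusted p = 0.0334) and with the Cyber-T style test (adjusted p = 0.0419), within a range from 0.0334 to 0.405. *Ltbp4*, which does bind latent TGF beta 1, was at 2461 and 3141 against 3828, 3677 and 3558 (-0.41, SE 0.107, adjusted p = 0.275). *Ltbp4* was at -0.23 without *Clock* mutant replicate 1, while leaving out replicate 2 gave -0.58 and the one call of its settings, at an adjusted p of 0.0454 in a range up to 0.783. *Itgav*, the integrin subunit that helps release active ligand, differed by 0.19 without overlap at its brightest probe set (adjusted p = 0.435), and by -0.12 with overlap at the other testable one. *Dab2*, an adaptor of the receptors, differed in sign between its probe sets. At the brightest it was 0.20 without overlap (adjusted p = 0.458), and 0.11 without *Clock* mutant replicate 1. At 1430604_a_at the intensities were 141 and 132 in the mutants and 271, 235 and 178 in wild-type skin, again without overlap (-0.72, SE 0.210, adjusted p = 0.315), and the remaining ones were at 0.23 and 0.08.

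*Itgb8*, the partner of the alpha v integrin in activating the ligand, had a difference of -0.31 with overlap of the groups (adjusted p = 0.529), and of -0.16 without wild-type replicate 2 and -0.19 without *Clock* mutant replicate 1. The 9 genes counted as responsive transcripts are known to answer to TGF beta. Their differences ran from -0.41 to 0.12 at their brightest probe sets, where the groups overlapped in each. *Ltbp2* and *Itgb6* were also listed as responsive but were counted with latency and activation. *Ltbp2* was at 0.63 without overlap and *Itgb6* at 0.21 with overlap. *Ccn2*, a matricellular growth factor gene widely used as a readout, was at 3521 and 5502 in the mutants and at 4468, 7335 and 6148 in wild-type skin. The groups overlapped (-0.41, SE 0.219, adjusted p = 0.528), and the difference was -0.09 without *Clock* mutant replicate 1 and -0.74 without replicate 2. The fibrillar collagen genes *Col1a1*, *Col1a2* and *Col3a1* had intensities of 19368 to 25800 at their brightest probe sets, and the 95% intervals of their differences all held 0, at -0.22 to 0.11, -0.18 to 0.15 and -0.16 to 0.14. Dimmer probe sets of *Col1a1* (1455494_at) and *Col1a2* (1446326_at) were at 0.21 and 0.30 (adjusted p = 0.422 and 0.615 by limma). *Acta2*, the smooth muscle actin gene, was at 0.12 at its brightest probe set and at 0.50 at the dimmer 1444105_at (adjusted p = 0.482). The groups did not overlap at *Col1a1* 1455494_at and *Acta2* 1444105_at. *Fn1*, the fibronectin gene, was at -0.03 at its brightest probe set. Its dimmer 1437218_at went down, at -0.31 without overlap (adjusted p = 0.548).

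**Figure D4:**
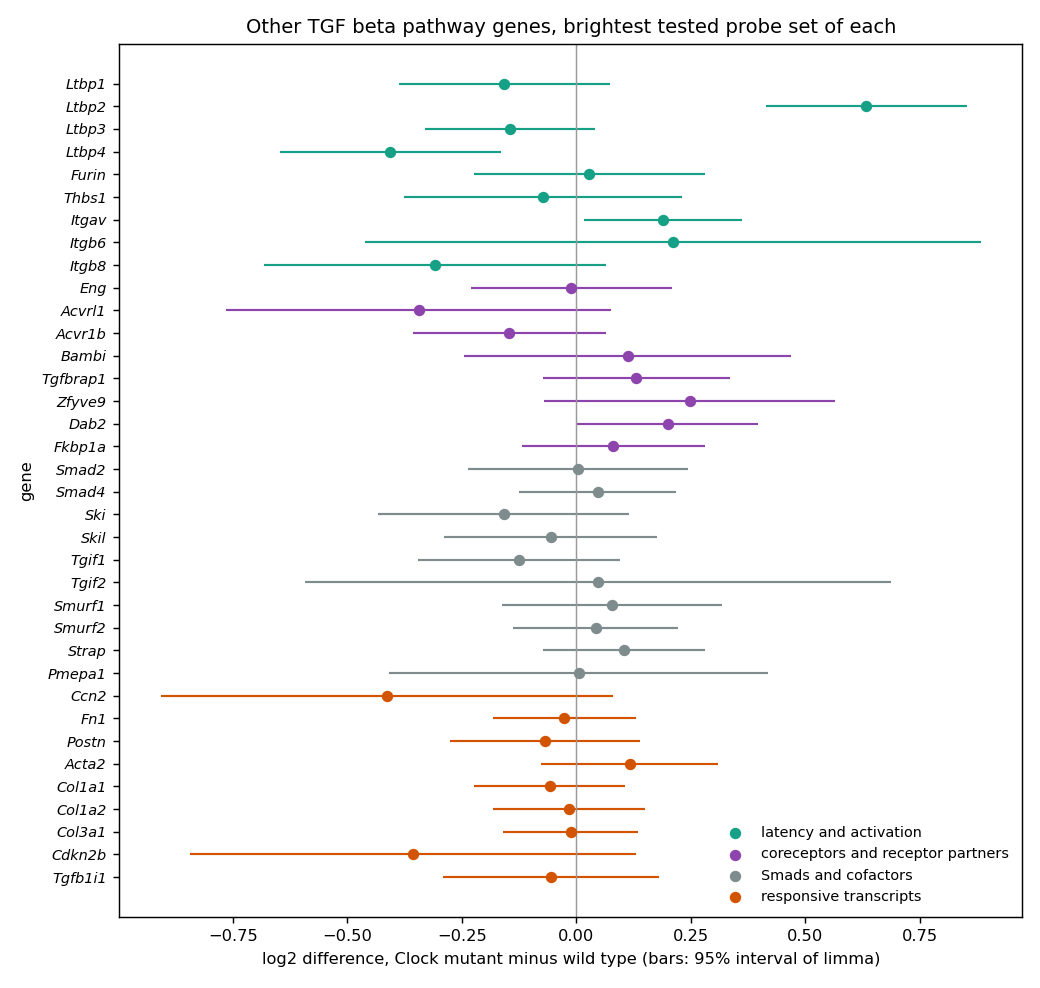
Log2 difference, *Clock* mutant minus wild type (horizontal axis), for the 36 other pathway genes (vertical axis) at their brightest tested probe set, with bars for the 95% interval from limma and colours for the role of the gene. *Ltbp2* lies at 0.63 and *Ltbp4* at -0.41, and each gene is shown at 1 probe set, so that others of the same gene may differ, as for *Dab2*.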

How the data were processed

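The authors made biotinylated cRNA from 11 ug of Trizol-extracted total RNA per mouse and deposited MAS5 signal intensities (version not given in the sources used here). No detection calls or scanner files were used here. Intensities under 1 were set to 1 and log2 was taken. Of 45101 probe sets, 64 controls were left out, as were those with a mean under the 40th percentile (an intensity of 56.7), and 27022 were tested with limma 3.58.1 in R 4.3.3 (lmFit, eBayes with an intensity trend, two-sided, p-values adjusted by Benjamini-Hochberg over every tested probe set). The methods of the study state no test for these arrays. The step was also run on simulated arrays with independent noise, which lack traits of single arrays such as those of *Clock* mutant replicate 1. Its outcome is not given here, so it says nothing on the power for these mice.

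Genes were named from the platform annotation (34945 probe sets with 1 symbol, 932 with several, 9160 unnamed here). Every member probe set is named, and of the other pathway genes the 3 with the smallest p in each direction, at the brightest tested probe set of each gene. Other pathway genes given with a value (*Smad2*, *Smad4*, *Itgb6*, *Fn1*, *Acta2* and the collagens) were added after their values were seen. The members and lists were chosen with earlier results of these data known. The number of arrays limits the precision. Mice are called biological replicates in the labels. Alternatives were another scaling, filter, pseudocount (32), prior or test, a replicate block, and leaving out each array.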

Additional observations from a re-analysis of the deposited data

How the results depend on the processing

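No member probe set passed the adjusted threshold in 13 of the 14 alternative settings; without *Clock* mutant replicate 2, *Tgfb1* 1420653_at passed. Leaving out 1 array gave 0 to 1 called members, 0 to 1 called pathway probe sets, a member median from -0.0999 to -0.0033 and 0 to 201 calls over all probe sets, where all 5 arrays gave 24. Over all probe sets 0 passed without wild-type replicate 2 or 3 by limma (1581 and 2194 at an unadjusted p under 0.05), 13 without *Clock* mutant replicate 1 and 201 without replicate 2, where the lone mutant is assumed to vary like the wild-type mice. All arrays gave 10 passing with no filter, 0 without a trend (2631 at an unadjusted p under 0.05), 47 with the Cyber-T style test and 106 with the replicate number as a replicate block. The labels share numbers in 2 pairs only, whose deviations correlated at 0.0078 and 0.0986. With 2 mutants their deviations mirror each other, so these values cannot show whether the numbers pair mice. Wild-type replicate 3 is alone in its block, so tested members had the same differences as without that array. The block called 0 members. *Ltbp2* was the 1 pathway probe set called with median centring and with the Cyber-T style test, and *Ltbp4* without *Clock* mutant replicate 2. The member median was -0.035 with quantile normalization and 0.024 with median centring.

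No member was called with all arrays and the settings described above, so every sign that turned was that of an uncalled member. With quantile normalization *Tgfb1* 1445360_at was at 0.042, *Tgfbr1* 1420893_a_at at 0.0095 and *Tgfbi* 1456250_x_at at -0.0039. With median centring *Tgfb3* was at 0.027, *Tgfbr1* 1420895_at at 0.038 and *Tgfbr2* 1426397_at at 0.022. *Tgfbi* 1456250_x_at was at -0.011 with the replicate block. Leaving out 1 array gave -0.35 to 0.17 for *Tgfb1* 1445360_at, -0.24 to 0.27 for *Smad7* 1423389_at, -0.34 to 0.013 for *Tgfbi* 1437463_x_at and -0.16 to 0.16 for *Tgfbi* 1456250_x_at. It gave -0.24 to 0.0043 for *Tgfbr1* 1420893_a_at and -0.13 to 0.00054 for *Tgfbr1* 1420895_at. The cause was not tested. Among the dim, untested probe sets *Smad3* 1450471_at was at -2.09, at -0.94 with the intensity plus 32, and at -3.11 and -1.07 without *Clock* mutant replicates 1 and 2. *Tgfbr2* 1422019_at was at 2.43, at 0.44 with the intensity plus 32, and at 1.60 and 3.19 without wild-type replicates 1 and 3. *Smad7* 1443771_x_at was at 0.39, and at -0.10 without wild-type replicate 1. At 2 against 3 arrays the precision is limited, and dim probe sets vary the most.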
